A study of Mus musculus with 9 samples.

Results

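The genes described here are 10 components of the circadian clock in the irradiated mouse submandibular gland: the activators Arntl (also called Bmal1) and Npas2, the repressors Per1, Per2, Per3, Cry1, Cry2, Nr1d1 and Bhlhe41, and the output factor Dbp. They were listed by name and looked up by Ensembl identifier, and all 10 were found among the 54532 identifiers of the read count table. The list was chosen by its textbook role and with values of these same libraries known, namely the lower levels of several of these genes at 90 than at 30 days. That contrast is therefore given for them as a description, and nothing rests on it. The step from 30 to 60 days and that from 60 to 90 days each share libraries with it, so their p-values, and the counts set beside those of all genes, are not independent of the choice. All 10 genes were among the 15224 that passed the filter on low counts.

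The study collected submandibular salivary glands of wild-type (WT) mice at 30, 60 and 90 days after 10 Gy of radiation, with 3 libraries at each time, and asked how the gland degenerates after irradiation. Every group had received the same dose. Glands without radiation are mentioned in the labels' protocols and were not analysed here, so every contrast sets irradiated glands against irradiated glands, and the animals' age cannot be told apart from the time after radiation. RNA came from 4 tissue sections per gland, each 50 µm thick. Neither the hour of day at collection nor age, sex or batch is labelled. Differences of clock genes between the groups therefore cannot be told apart from a different hour of collection. The p-values measure the spread between these libraries, which the labels do not tie to separate animals.

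The mammalian clock is a loop of transcription factors. ARNTL pairs with CLOCK or its relative NPAS2, binds E-box sequences and switches on the Per, Cry, Nr1d1, Bhlhe41 and Dbp genes, whose PER and CRY proteins in turn block the activators. NR1D1 represses Arntl and Npas2 through ROR elements, and DBP and its relatives act on D-boxes. Transcripts of the activators and of many, though not all, E-box genes therefore peak at opposite times of the day in most peripheral tissues, the salivary glands among them.

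These motifs were looked for in the promoter windows of RefSeq (GRCm38.p6), each 300 bases long and running from 250 bases before to 50 after a transcription start. Windows were found for 9 of the 10 genes, 11 in all; Per2 had none. An E-box (CACGTG, which reads the same on both strands) was present for 3 genes, Per1, Cry1 and Bhlhe41, and in 7.15% of all 32851 windows. Per3 alone of the 9 genes held the D-box (TTATGTAA, either strand), with 2 copies, against 0.938% of all windows with at least 1. Arntl alone held a ROR element (TAGGTCA or TGGGTCA, either strand), against 6.45% of all windows. A match describes the letters of the window and is not evidence of binding, and the windows are too short to hold distal or intronic elements. The stretches with a match follow to show where these letters lie, 5′ to 3′ on the gene's strand, with the motif in capitals and without bases that an annotated exon covers, except for the short Arntl site, which lies after a start.
Per1 (chr11:69098699-69098947, plus strand, E-box): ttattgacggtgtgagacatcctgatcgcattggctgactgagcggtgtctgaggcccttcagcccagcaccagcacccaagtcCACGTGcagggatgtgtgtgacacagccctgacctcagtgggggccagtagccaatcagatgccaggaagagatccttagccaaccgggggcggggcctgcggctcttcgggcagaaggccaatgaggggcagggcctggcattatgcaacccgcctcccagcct
Cry1 (chr10:85185065-85185304, minus strand, E-box): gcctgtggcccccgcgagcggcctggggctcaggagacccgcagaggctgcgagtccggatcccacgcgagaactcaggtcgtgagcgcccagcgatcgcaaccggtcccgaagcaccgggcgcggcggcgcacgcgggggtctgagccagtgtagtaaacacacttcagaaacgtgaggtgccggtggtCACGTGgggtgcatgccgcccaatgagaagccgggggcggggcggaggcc
Bhlhe41 (chr6:145865559-145865670, minus strand, E-box): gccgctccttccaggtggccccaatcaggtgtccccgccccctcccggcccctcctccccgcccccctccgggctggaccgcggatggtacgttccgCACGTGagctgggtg
Per3 (chr4:151044666-151044915, minus strand, D-boxes): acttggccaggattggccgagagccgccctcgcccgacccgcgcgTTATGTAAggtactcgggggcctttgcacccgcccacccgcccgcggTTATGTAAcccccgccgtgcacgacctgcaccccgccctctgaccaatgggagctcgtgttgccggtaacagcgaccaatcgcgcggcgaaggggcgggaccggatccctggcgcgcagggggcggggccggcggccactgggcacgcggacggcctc
Arntl (chr7:113207532-113207556, plus strand, ROR element): ggcagaaagTAGGTCAgggacggag

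Depth and composition differed between the libraries. Total counts were 16541396 to 17179500 at 30 days, 21722141 to 24880803 at 60 days and 20410818 to 26065856 at 90 days. Levels are given as CPM (read counts scaled to the library total, here adjusted by TMM, the trimmed mean of M-values), and TMM factors ran from 0.824 in 30-day library 1 to 1.19 in 90-day library 2. The salivary markers Aqp5 and Bhlha15 (acinar cells) and Egf (granular ducts) were at 262 CPM or more in every library, and the duct keratin Krt19 was at 1.84 to 7.38 CPM. Adipoq (adipocytes) had 0 counts in 30-day library 1 and 60-day library 3, but 23 counts (1.37 CPM) in 30-day library 2 and 12 in 60-day library 1. Ckm (skeletal muscle) reached at most 2.35 CPM.

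Per unit of transcript length, Dbp and Nr1d1 were the most abundant of the 10 genes and Arntl and Npas2 the least at every time point. On the scale of CPM per kilobase of annotated exon, the 30-day means were 61.1 ± 9.23 for Dbp and 47.1 ± 6.88 for Nr1d1 (SD, n = 3 each), and the libraries of this pair overlapped. Per1 followed with 12.2 ± 3.73, then Per3 with 8.80 ± 1.77, Per2 with 6.20 ± 0.485, Cry2 with 4.38 ± 0.775, Bhlhe41 with 3.45 ± 0.273 and Cry1 with 2.92 ± 0.674 (SD, n = 3 each). The 30-day libraries also overlapped between Per1 and Per3 and between Bhlhe41 and Cry1. Arntl, at 0.154 ± 0.0378, and Npas2, at 0.148 ± 0.0689, did not differ beyond their spread. At 90 days the order of the leading pair was the other way round, with Nr1d1 at 38.2 ± 3.55 and Dbp at 29.5 ± 1.99 (SD, n = 3 each), and their libraries did not overlap. The 90-day ranges of neighbours in the order overlapped from Per1 down to Cry1, so neighbouring ranks among Per1, Per3, Per2, Bhlhe41, Cry2 and Cry1 do not differ beyond their spread there.

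**Figure D1:**
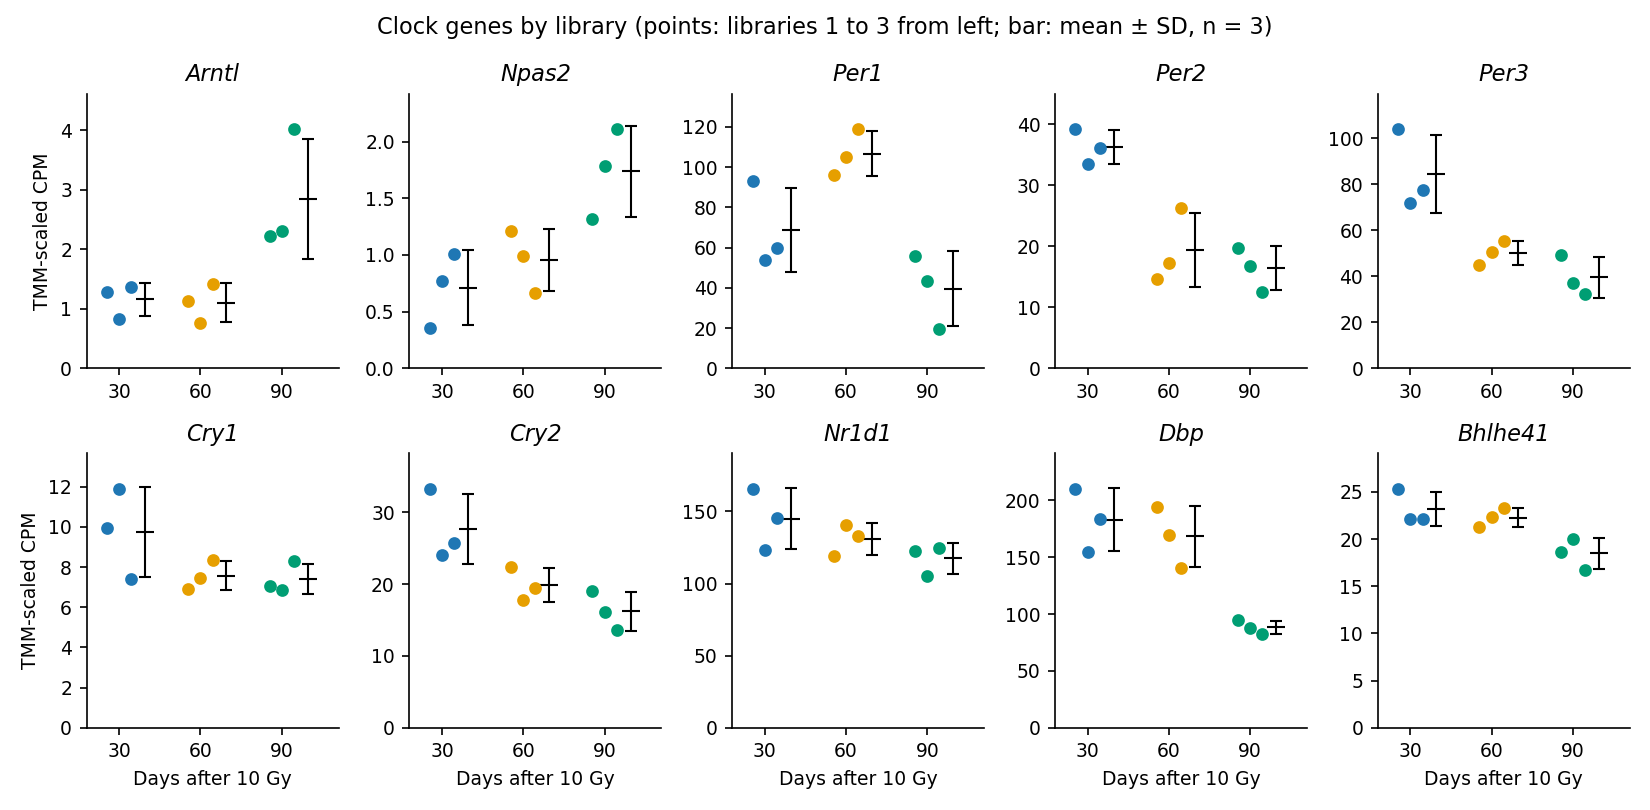
TMM-scaled CPM (vertical axes, each starting at 0) of the 10 clock genes against days after 10 Gy, with 1 point per library and the mean ± SD of 3 libraries beside them. Dbp is at 82.8 to 94.7 CPM in the 90-day libraries and at 141 CPM or more in all others, while Arntl and Npas2 are highest in the 90-day libraries.

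The PAR-domain leucine zipper factor Dbp, an output of the loop that carries the rhythm to D-box genes, was lowest at 90 days (ENSMUSG00000059824, chromosome 7, 45705088 to 45710203, plus strand, GRCm38). It measured 210, 155 and 184 CPM in 30-day libraries 1, 2 and 3, 194, 170 and 141 CPM at 60 days, and 94.7, 87.5 and 82.8 CPM at 90 days. The 30-day and 60-day libraries overlapped, and every 90-day library was below all of them. Dbp fell between 60 and 90 days, with a log2 fold change of -0.93 ± 0.13 (SE; edgeR quasi-likelihood test, Benjamini-Hochberg adjusted p = 0.00181), which is a change of -47.5%. The call held in all 18 alternatives run, with adjusted p-values of 5.79e-13 to 0.0207. The earlier step, 30 to 60 days, gave -0.12 ± 0.13 on the log2 scale (SE; adjusted p = 0.766).

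Dbp was the 1 gene of the 10 called between 60 and 90 days, where 0.256% of all genes tested were called in either direction and 0.164% were called lower. In whole-gland RNA, fewer cells of a type and less RNA per cell cannot be told apart. The 10 acinar marker genes summed to 14309 to 18921 CPM at 60 days and 8352 to 12332 CPM at 90 days. Of the 9 acinar markers tested, 7 had a negative log2 fold change and 1, Bhlha15, was called lower. The part of the acinar markers in the fall of Dbp was not tested. Dbp shares 539 of its 2993 annotated exon bases with Sphk2, a sphingosine kinase gene on the opposite strand, and the strand setting of the counting is not given in the sources used here. The log2 difference of Sphk2 over the same interval was 0.42 ± 0.11 (SE; adjusted p = 0.159), opposite in sign to Dbp.

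Arntl, whose product pairs with CLOCK or NPAS2 (ENSMUSG00000055116, chromosome 7, 113207465 to 113314126, plus strand), was scarce, with 14 to 34 counts in the 6 libraries of 30 and 60 days and 66 to 80 at 90 days. It measured 1.28, 0.832 and 1.36 CPM in the 30-day libraries, 1.12, 0.769 and 1.42 CPM at 60 days, and 2.23, 2.30 and 4.02 CPM at 90 days. Every 90-day library was above every earlier one, and the earlier groups overlapped. The lowest 90-day value has a 95% counting interval of 1.72 to 2.83 CPM (exact Poisson) and the highest earlier value, 60-day library 3, one of 0.982 to 1.98 CPM. These intervals overlap, and they cover counting error only, since amplified reads are not independent molecules. Arntl was higher by a log2 fold change of 1.35 ± 0.36 at 90 than at 60 days without passing the test (SE; adjusted p = 0.147 by edgeR, 0.0295 without the filter on low counts), and from 30 to 60 days it was -0.06 ± 0.39 (SE; adjusted p = 0.977).

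Npas2, which can stand in for CLOCK as the partner of ARNTL (ENSMUSG00000026077, chromosome 1, 39193731 to 39363236, plus strand), had only 5 to 52 counts per library. It stood at 0.354, 0.773 and 1.01 CPM at 30 days, 1.21, 0.995 and 0.668 CPM at 60 days, and 1.31, 1.79 and 2.11 CPM at 90 days. As with Arntl, every 90-day library was above every earlier one. The gap was small against counting error, however, since 90-day library 1 has an interval of 0.935 to 1.80 CPM and 60-day library 1 one of 0.803 to 1.75 CPM (exact Poisson). The 60-to-90-day difference was 0.85 ± 0.41 on the log2 scale (SE; adjusted p = 0.470), and that from 30 to 60 days was 0.40 ± 0.45 (SE; adjusted p = 0.780), so neither step of Npas2 passed the test.

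The period genes encode the PER proteins, which gather with the CRY proteins into the complex that silences ARNTL and its partners. Per2 (ENSMUSG00000055866, chromosome 1, 91415982 to 91459324, minus strand) measured 39.2, 33.5 and 36.2 CPM at 30 days, 14.6, 17.3 and 26.3 CPM at 60 days, and 19.8, 16.8 and 12.5 CPM at 90 days. All 30-day libraries were above all others, and the 60-day and 90-day libraries overlapped. Per2 fell from 30 to 60 days, with a log2 fold change of -0.90 ± 0.20 (SE; edgeR adjusted p = 0.0473), or -46.5%. Per3 (ENSMUSG00000028957, chromosome 4, 151003652 to 151044665, minus strand), whose promoter holds the D-boxes shown above, stood at 104, 72.0 and 77.7 CPM at 30 days, 44.9, 50.4 and 55.4 CPM at 60 days, and 49.4, 37.2 and 32.1 CPM at 90 days. Like Per2 it was higher in every 30-day library than in any later one, and its 30-to-60-day fall was -0.75 ± 0.16 on the log2 scale (SE; edgeR adjusted p = 0.0340).

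Per2 and Per3 were the 2 genes of the 10 called between 30 and 60 days, where 1.56% of all genes tested were called in either direction and 0.427% were called lower. Both calls were close to the threshold and depended on single libraries. Without 30-day library 1, 30-day library 3, 60-day library 1 or 60-day library 2, neither gene was called. Without 30-day library 2, 60-day library 3 or 90-day library 2, 1 of the pair remained called. Library-size scaling alone also left neither gene called (adjusted p = 0.371 for Per2 and 0.111 for Per3). With all libraries drawn down to equal depth both were called. The 9 granular duct markers, which rose over the same interval, summed to 21967 to 30613 CPM at 30 days and 46001 to 55515 CPM at 60 days, with 8 of 9 called higher. Their part in the fall of Per2 and Per3 was not tested. From 60 to 90 days the log2 fold changes were -0.24 ± 0.20 for Per2 and -0.34 ± 0.16 for Per3 (SE; adjusted p = 0.739 and 0.471).

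Per1 (ENSMUSG00000020893, chromosome 11, 69095217 to 69109960, plus strand), a period gene that is also rapidly induced by glucocorticoids and cyclic AMP, took another course. It measured 92.9, 53.9 and 59.7 CPM at 30 days, 96.3, 105 and 119 CPM at 60 days, and 56.0, 43.4 and 19.3 CPM at 90 days. The 60-day libraries were above all others, and the 30-day and 90-day libraries overlapped. Its log2 fold change was 0.63 ± 0.39 from 30 to 60 days and -1.42 ± 0.40 from 60 to 90 days (SE; adjusted p = 0.595 and 0.295), and its departure at 60 days from the mean of the other times was 1.03 ± 0.33 (SE; adjusted p = 0.392). None of these passed the edgeR test, although DESeq2 called the step from 60 to 90 days (adjusted p = 0.0491). Per1 had the widest spread within groups of the 10 genes, with an SD of 0.53 on the log2 CPM scale against a median of 0.22 over all genes tested.

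The ratio of Per1 to the other period genes does not depend on how libraries are scaled, and was worked out after these values had been seen. The log2 ratio of Per1 to Per2 counts was 0.68 to 1.24 in the 30-day libraries and 2.17 to 2.72 in the 60-day libraries, and the 90-day mean was 1.16 ± 0.48 (SD, n = 3). The log2 ratio of Per1 to Per3 was 1.06 to 1.10 in the 60-day libraries and -0.74 to 0.22 in the others. In both ratios the 60-day libraries lay above all others, by at least 0.67 and 0.84. The log2 ratio of Per2 to Per3, in contrast, was -1.62 to -1.07 over all 9 libraries, and the 3 time points overlapped.

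The cryptochromes are the partners of the PER proteins and the stronger repressors of the complex. Cry2 (ENSMUSG00000068742, chromosome 2, 92403646 to 92434043, minus strand) measured 33.2, 24.1 and 25.7 CPM at 30 days, 22.4, 17.8 and 19.4 CPM at 60 days, and 19.0, 16.1 and 13.6 CPM at 90 days. Every 30-day library was above every later one, and the later groups overlapped. Its log2 fold change was -0.47 ± 0.15 from 30 to 60 days and -0.29 ± 0.15 from 60 to 90 days (SE; adjusted p = 0.149 and 0.499), so neither step passed the test, although the first did without the filter on low counts (adjusted p = 0.0405). Cry1 (ENSMUSG00000020038, chromosome 10, 85131700 to 85185064, minus strand) ran from 6.87 to 11.9 CPM over the 9 libraries, and the 3 groups overlapped. Its log2 fold change was -0.36 ± 0.18 from 30 to 60 days and -0.04 ± 0.18 from 60 to 90 days (SE; adjusted p = 0.444 and 0.969).

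Nr1d1 encodes REV-ERBα, the heme-binding nuclear receptor that represses Arntl (ENSMUSG00000020889, chromosome 11, 98767932 to 98775333, minus strand). It measured 166, 123 and 146 CPM at 30 days, 119, 141 and 133 CPM at 60 days, and 123, 105 and 125 CPM at 90 days, with overlap between all groups. The log2 fold changes were -0.15 ± 0.12 from 30 to 60 days and -0.16 ± 0.12 from 60 to 90 days (SE; adjusted p = 0.677 and 0.682). Nr1d1 overlaps Thra on the opposite strand in 263 of its 3077 exon bases. Bhlhe41, or DEC2, a repressor that competes at E-boxes (ENSMUSG00000030256, chromosome 6, 145858243 to 145865558, minus strand), had the narrowest spread within groups of the 10 genes, an SD of 0.11 on the log2 CPM scale. It stood at 22.1 to 25.3 CPM at 30 days, 21.2 to 23.3 CPM at 60 days and 16.7 to 20.0 CPM at 90 days. The 90-day libraries were below all others, but their difference from the 60-day libraries, -0.27 ± 0.12 on the log2 scale (SE; adjusted p = 0.425), did not pass the test.

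**Figure D2:**
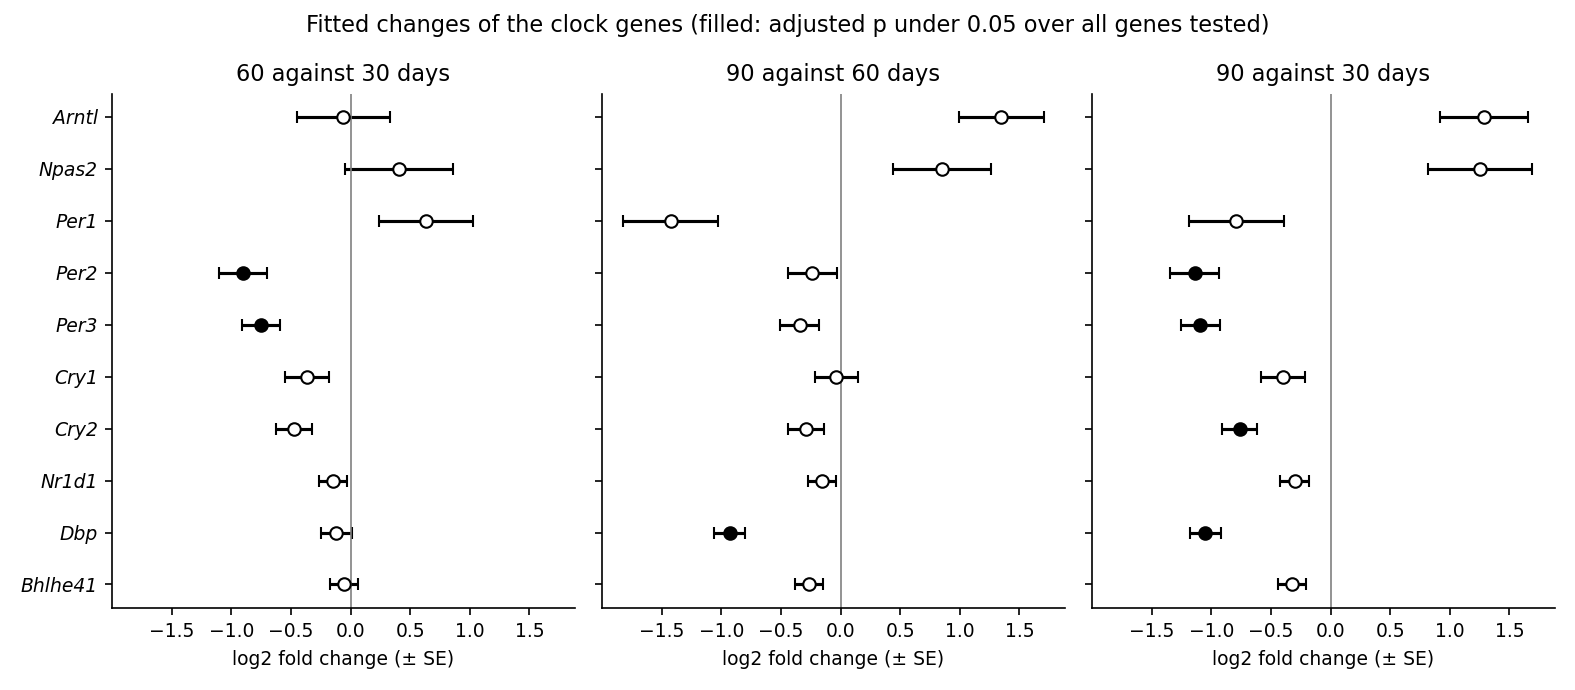
Fitted log2 fold changes (horizontal axis, ± SE) of the 10 genes in the contrasts of 60 against 30, 90 against 60 and 90 against 30 days, with filled points where the adjusted p over all genes tested was under 0.05. Per2 and Per3 are filled in the first contrast, Dbp in the second, and Per2, Per3, Cry2 and Dbp in the third, which was used in choosing the genes.

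Counted by overlap, 4 of the 10 genes had 30-day and 60-day libraries apart, 3 lower and 1 higher at 60 days, where 16.9% of all genes tested did not overlap. Between 60 and 90 days 5 genes did not overlap, 3 lower and 2 higher at 90 days, where the share of all genes was 15.9%. The median log2 fold change of the 10 genes was -0.13 from 30 to 60 days and -0.25 from 60 to 90 days, and the median of all genes was 0.00 in both. Library-size scaling moved the median of all genes by 0.17 for 90 against 60 days and by 0.22 for 90 against 30 days. With TMM scaling 8 of the 10 genes had a negative log2 fold change in each single step, and with library-size scaling 6 did. Under both scalings 8 of the 10 lay below the median of all genes in each single step.

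Between 90 and 30 days, the contrast known when the genes were chosen, Per2, Per3, Cry2 and Dbp were called lower by edgeR, 4 of 10 genes, beside 3.57% of all genes called in either direction and 1.77% called lower. Their log2 fold changes were -1.14 ± 0.20, -1.09 ± 0.16, -0.76 ± 0.15 and -1.05 ± 0.13 (SE). Arntl and Npas2 had values of 1.29 ± 0.37 and 1.25 ± 0.44 (SE) and were not called by edgeR. Arntl was called in 6 of 18 alternatives, DESeq2 among them (adjusted p = 0.0420). With library-size scaling alone 3 genes were called, namely Dbp and Per3 lower and Arntl higher. The call of Cry2 was also lost without 30-day library 1, and that of Per2 without 90-day library 2. In 7 of the 10 genes the 30-day and 90-day libraries did not overlap, beside 23.2% of all genes. In the same contrast 8 of 9 granular duct markers were called higher, with a median log2 fold change of 1.89, and 3 of 9 acinar markers tested were called lower, with a median of -0.45. The part of these markers in the values of the clock genes was not tested.

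Whether the steps from 30 to 60 and from 60 to 90 days differed was tested as the departure of 60 days from the mean of 30 and 90 days, a contrast orthogonal to the one behind the choice, from the same libraries. In edgeR 0 of the 10 genes passed, beside 0.256% of all genes called. For Dbp the departure was 0.41 ± 0.11 (SE; edgeR adjusted p = 0.168, with a range of 0.00451 to 0.753 over the alternatives). DESeq2 called Dbp alone of the 10 genes in this contrast, where it called 148 of all genes. In edgeR 3 of the 10 genes had an unadjusted p under 0.05, beside 9.45% of all genes.

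Ratios of clock genes within a library use no scaling factor, and 7 pairs were formed. The 1 count added to each gene carries more weight where counts are low, as for Arntl and Npas2, and depth differed between the groups. Each set an activator over a repressor or over Dbp, except Cry1 to Dbp, which sets a repressor over Dbp. They are ratios of counts, not corrected for transcript length, so only differences between libraries carry meaning. The log2 ratio of Arntl to Dbp was -7.29, -7.44 and -7.02 in the 30-day libraries, -7.38, -7.70 and -6.59 at 60 days, and -5.39, -5.23 and -4.35 at 90 days. The group means were -7.25 ± 0.22, -7.23 ± 0.57 and -4.99 ± 0.56 (SD, n = 3 each). Every 90-day library lay above every earlier library, by at least 1.20, and the earlier groups overlapped. The ratio of Arntl to Nr1d1 behaved alike, at -7.44 to -6.51 in the 6 earlier libraries and -5.77 to -4.94 at 90 days.

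The ratio of Npas2 to Dbp was -8.95, -7.54 and -7.43 at 30 days, -7.28 to -7.64 at 60 days, and -6.13, -5.59 and -5.26 at 90 days. The lowest of these, in 30-day library 1, rests on 5 counts of Npas2. In ratios to Per2 and Per3, which were already lower at 60 days, the 60-day means lay between the others. Arntl to Per2 had means of -4.92 ± 0.29, -4.08 ± 0.39 and -2.54 ± 0.80 at 30, 60 and 90 days (SD, n = 3 each), and no 2 groups overlapped. Arntl to Per3 had means of -6.13 ± 0.31, -5.49 ± 0.40 and -3.81 ± 0.75 (SD, n = 3 each), with overlap between 30 and 60 days. In 5 of the 7 ratios all 90-day libraries were above all earlier ones. Each of these 5 holds Arntl or Npas2, whose own 90-day libraries were above all earlier ones, so they are not separate results. The share over other pairs of genes was not worked out. Of single genes, 15.9% did not overlap between 60 and 90 days and 23.2% between 30 and 90 days. The exceptions were Npas2 to Per3 and Cry1 to Dbp, in which 1 or more earlier libraries reached the 90-day range. No p-value is given for the ratios, because the genes were chosen with results of these libraries known.

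**Figure D3:**
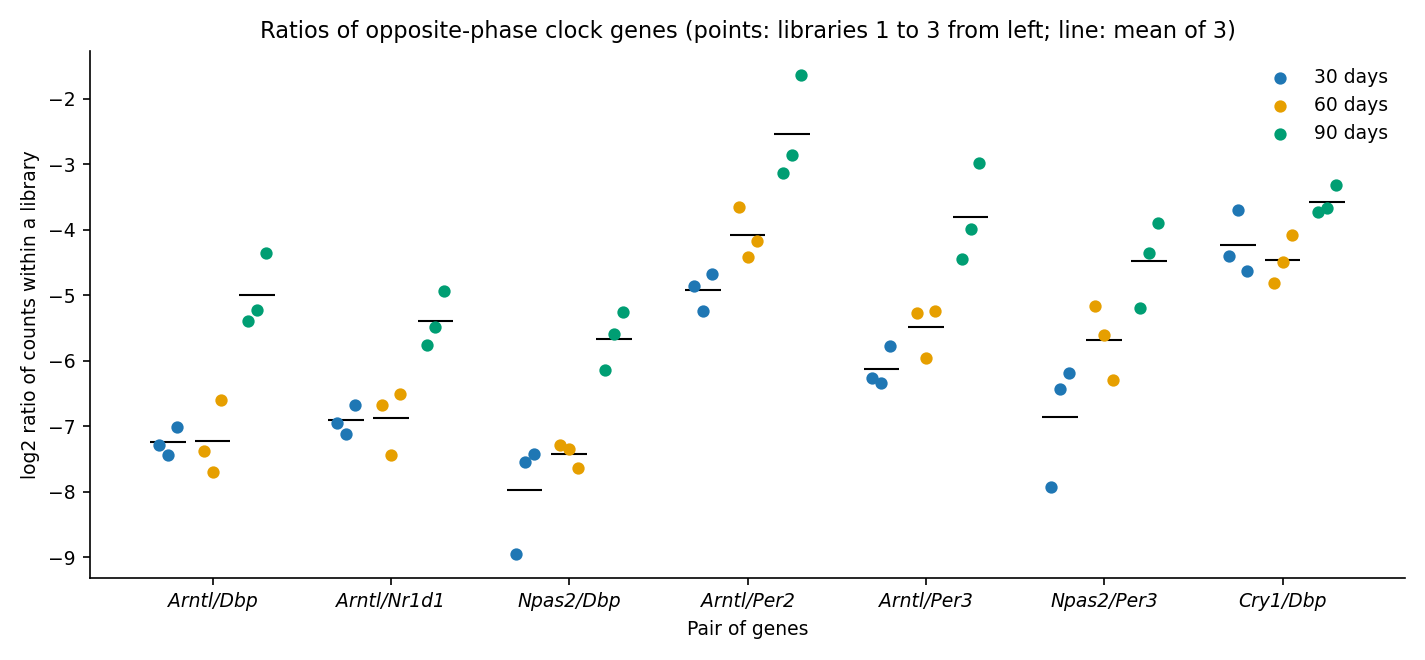
log2 ratio of counts within a library (vertical axis) for 7 pairs of clock genes, with points for the libraries of each time point and a line at their mean. The 90-day libraries lie above all earlier ones in the first 5 pairs, and the largest range within the 90-day group is that of Arntl to Per2, from -3.13 to -1.63.

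Libraries of the same time point also differed in their levels of the clock genes. How often each library ranked highest or lowest over all genes was not worked out. The ranks that follow are therefore not shown to be particular to the clock genes. At 30 days, library 1 had the highest level of the group in 7 of the 10 genes, and library 2 the lowest in 7. At 60 days, library 3 was the highest in 6 genes, Per1, Per2 and Per3 among them, and library 1 the lowest in 6. At 90 days, library 3 had the lowest Per1, Per2, Per3, Cry2, Dbp and Bhlhe41 and the highest Arntl, Npas2, Cry1 and Nr1d1. In that group Per1 differed 2.90-fold between the highest and lowest library and Arntl 1.80-fold, whereas Dbp differed 1.14-fold. Without 90-day library 3 the log2 ratio of Arntl to Dbp was still 1.92 higher at 90 than at 60 days, against 2.24 with it, and the call of Dbp held.

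**Figure D4:**
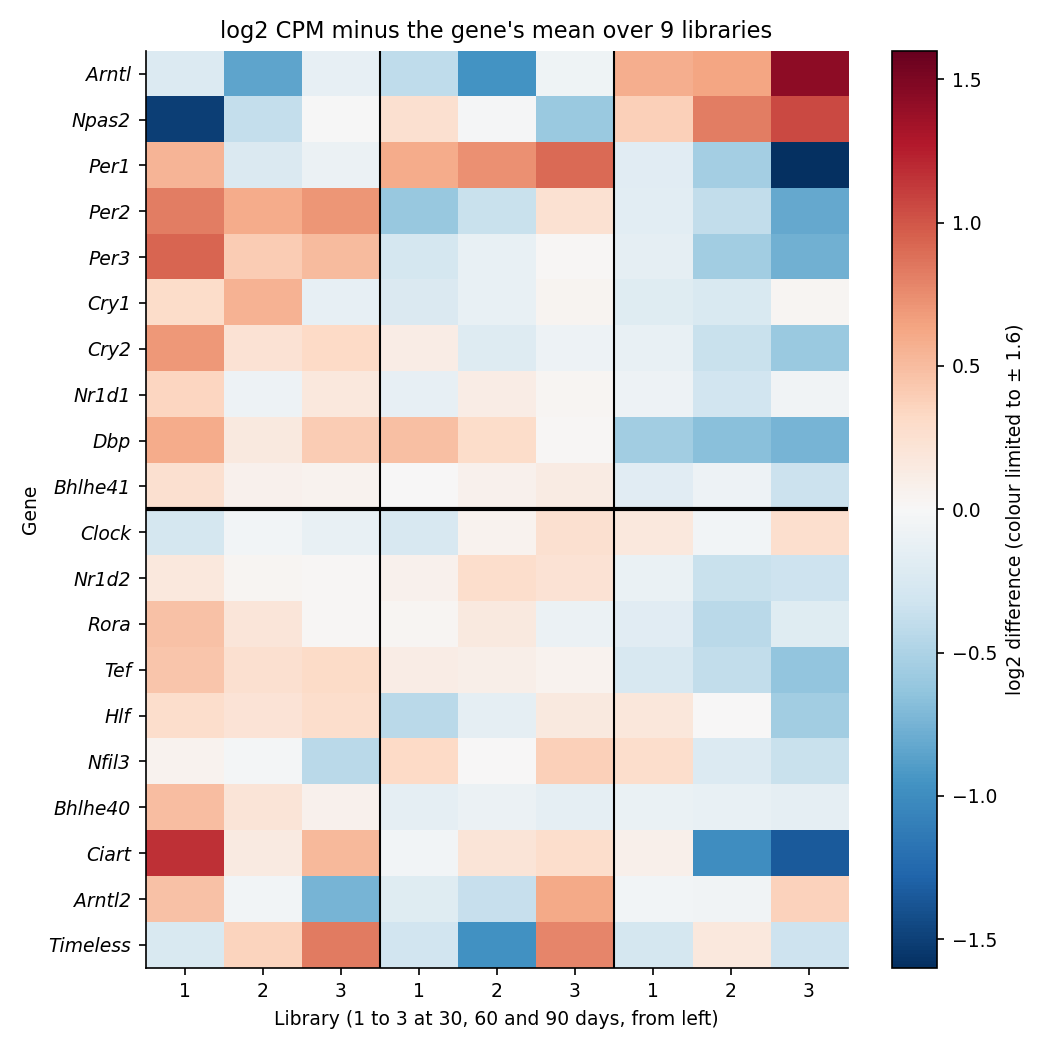
Level of each gene in each library as log2 CPM minus the gene's mean over 9 libraries (colour, limited to ± 1.6), with the 10 clock genes above the line and 10 other clock loop genes below it. Arntl and Npas2 are above their means in all 90-day libraries, where Dbp, Per2, Per3, Cry2 and Tef are below theirs.

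The wider loop was examined through a list of 11 further genes, of which 10 passed the filter. Rorb, at 0 or 1 count per library, did not. Between 30 and 60 days and between 60 and 90 days 0 of the 10 were called by edgeR, with 2 and 4 of them at an unadjusted p under 0.05, beside 12.4% and 10.8% of all genes. DESeq2 called 1 in the first step (Bhlhe40) and 2 in the second (Nr1d2 and Tef), and limma-voom 0 and 1 (Tef). Over all genes DESeq2 called 358 and 140 in these steps, where edgeR called 238 and 39. At 90 against 30 days edgeR called 3, all lower, beside 1.77% of all genes. These were Tef, a relative of Dbp that also binds D-boxes, with -0.75 ± 0.11, Rora, an activator at ROR elements, with -0.50 ± 0.13, and Bhlhe40, the relative of Bhlhe41, with -0.39 ± 0.11 (log2 fold change, SE). Of 18 alternatives, Tef lost its call in 1 (library-size scaling), Rora in 6 and Bhlhe40 in 9. DESeq2 called 5 in this contrast, adding Nr1d2 and Ciart, and limma-voom called 3, with Ciart in place of Bhlhe40. The share of 1.77% is that of edgeR, and the shares over all genes with DESeq2 and limma-voom are not given here. Tef measured 237, 208 and 215 CPM at 30 days, 189, 186 and 181 CPM at 60 days, and 146, 133 and 112 CPM at 90 days, so that no 2 groups overlapped. Its step from 60 to 90 days was -0.51 ± 0.11 (SE; adjusted p = 0.0593). Bhlhe40 was at 102 to 136 CPM at 30 days and at 87.5 to 90.9 CPM in all 6 later libraries.

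Nr1d2, the paralog of Nr1d1, had a log2 difference of -0.46 ± 0.11 between 60 and 90 days (SE; adjusted p = 0.0821), with 129 to 150 CPM at 60 days and 95.7 to 114 CPM at 90 days. For Ciart, a repressor of the ARNTL complex, that step was -0.75 ± 0.33 (SE; adjusted p = 0.450), and the 90-against-30-day value was -1.26 ± 0.34 (SE; adjusted p = 0.0590). Clock, the usual partner of ARNTL, ranged from 20.5 to 29.9 CPM with overlap between all groups, and its log2 fold changes from 30 to 60 and from 60 to 90 days were 0.17 ± 0.14 and 0.10 ± 0.13 (SE; adjusted p = 0.657 and 0.839). The log2 fold changes of Hlf, Nfil3, Arntl2 and Timeless in these steps lay between -0.38 and 0.37, and none passed the test.

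Of 11 genes for kinases, ubiquitin ligases and proteases that set the stability of clock proteins, 0 were called by edgeR in either single step, with 3 at an unadjusted p under 0.05 in each, where the shares of all genes were 12.4% and 10.8%. DESeq2 called 1 of them from 60 to 90 days, Usp2, where it called 140 of all genes, and limma-voom called 0 of them. The median log2 fold changes were -0.11 from 30 to 60 days and 0.00 from 60 to 90 days. At 90 against 30 days edgeR, DESeq2 and limma-voom each called 1. Of all genes, edgeR called 3.57% there in either direction and 1.77% lower. The gene called was Usp2, a ubiquitin protease whose own transcript follows the clock, with -1.07 ± 0.22 (log2 fold change, SE). Its call was lost in 4 of 18 alternatives. Usp2 measured 57.8 to 103 CPM at 30 days, 63.0 to 68.5 CPM at 60 days and 27.0 to 41.9 CPM at 90 days.

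Among 12 clock-controlled output genes, edgeR called 1 between 30 and 60 days. Of all genes, 1.56% were called in either direction and 0.427% lower. The gene called was Cdkn1a, a cell cycle inhibitor that is also a p53 target, with -1.04 ± 0.23 (log2 fold change, SE; edgeR adjusted p = 0.0412). That call was lost in 10 of 18 alternatives, limma-voom among them. Between 60 and 90 days 0 were called by edgeR or limma-voom and 1 by DESeq2 (Wee1), which called 140 of all genes there. In edgeR 7 had an unadjusted p under 0.05, beside 10.8% of all genes. These 7 went in both directions. Of the 12 genes, 6 had a positive and 6 a negative log2 fold change, with a median of -0.04. At 90 against 30 days Wee1, a cell cycle kinase gene, and Tspan4, a tetraspanin gene, were called lower by edgeR, DESeq2 and limma-voom. Their values were -0.82 ± 0.15 and -0.57 ± 0.14 (log2 fold change, SE). In that contrast edgeR called 3.57% of all genes in either direction and 1.77% lower. Wee1 lost its call with library-size scaling, 1 of 18 alternatives, and Tspan4 in 5. Wee1 was at 19.3 to 31.5 CPM at 30 days, 21.3 to 24.4 CPM at 60 days and 13.9 to 15.8 CPM at 90 days, so its 90-day libraries were below all others, as with Dbp.

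Genes outside the clock lists with a course like that of Dbp or Arntl were ranked by the root mean square difference, over the 9 libraries, between log2 CPM profiles that were each centred on their own mean. Among 9524 genes with a mean of at least 5 CPM, the nearest to Dbp was Camkk1, which encodes a calcium/calmodulin-dependent kinase kinase, at 0.107, followed by Fdft1 at 0.177, Uaca at 0.185, Rgcc at 0.187 and Spns2 at 0.189, where the median gene was at 0.510. Camkk1 measured 38.1 ± 6.97, 34.9 ± 4.61 and 20.1 ± 2.64 CPM at 30, 60 and 90 days (SD, n = 3 each). The nearest to Arntl were farther off, namely Wdr90 at 0.389, Slc5a3 at 0.402, Tmem176a at 0.410, Hsph1 at 0.422 and Trp63 at 0.429, where the median gene was at 0.705. The libraries behind these distances share their depth and scaling, and the distances say nothing of shared control.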

How the data were processed

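RNA sequencing of 9 irradiated submandibular glands was analysed, 3 at each of 30, 60 and 90 days. The authors deposited raw read counts per Ensembl gene; fastp, STAR, featureCounts and the build mm10 are named, per the submitters' processing notes. Tool versions, the annotation, the strand setting and the treatment of shared reads are not given in the sources used here. Columns were matched to samples by day and sample number, and 3 further columns that match no sample listed here were not used.

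The filterByExpr function of edgeR 4.0.16 (minimum count 10) kept 15224 genes. Libraries were TMM scaled, and all 9 were fitted together by time point. Each gene was tested with edgeR's robust quasi-likelihood test and Benjamini-Hochberg adjustment over all 15224 genes (threshold 0.05). The procedure was tested on simulated data. A floor of 3 counts corresponds to 0.115 to 0.181 CPM. Within-library ratios are log2 of counts plus 1. Positions and exon lengths come from GENCODE mouse release 21 (GRCm38, the same assembly as mm10). R 4.3.3 ran DESeq2 1.42.0 and limma 3.58.1, and figures were drawn with matplotlib 3.10.9.

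The 10 genes, the other gene lists and the tests were chosen with earlier results of these data known. Always named were the 10 genes and the 11 other loop genes; 1 further gene of that list is not reported here. Genes of the turnover and output lists were named where called, and the 5 genes nearest to Dbp and to Arntl were named by distance. Alternatives were other scalings, DESeq2, limma-voom, other filters, equal depth, 6 libraries alone, a replicate block, leaving out each library, and for ratios a prior of 0.5 or 5 counts. Marker lists, as summed CPM over the lowest and highest library, were 734 to 751 at 30 days, 675 to 847 at 60 days and 762 to 875 at 90 days for duct and basal cells. They were 316 to 441, 469 to 518 and 434 to 599 for myoepithelium and smooth muscle, 60.0 to 116, 76.3 to 82.4 and 80.7 to 146 for immune cells, and 60.0 to 69.9, 57.4 to 59.7 and 65.4 to 78.9 for endothelium. They were 342 to 548, 332 to 484 and 423 to 493 for fibroblasts, and at most 15.6 for adipocytes and 2.76 for skeletal muscle.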

Additional observations from a re-analysis of the deposited data

How the results depend on the processing

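Dbp kept its call from 60 to 90 days in all 18 alternatives, and the log2 ratio of Arntl to Dbp moved by less than the spread between libraries in each alternative; its difference of 60 from 30 days, 0.02, turned to -0.043 with a prior of 5 counts and was -0.30 to 0.26 with 1 library left out. The number of the 10 clock genes called from 30 to 60 days, 2, fell to 0 with library-size scaling and to 1 with the sample number as a replicate block, was 3 without the filter on low counts, and was 0 to 2 when 1 library was left out. From 60 to 90 days DESeq2 and no filter on low counts each gave 2 in place of 1. For the departure of 60 days from the mean of 30 and 90 days, DESeq2 and no filter each gave 1 in place of 0, and leaving out 1 library gave 0 to 1. Among fitted values of single genes, signs turned only for those that no fit called: with library-size scaling, Arntl (0.011) and Bhlhe41 (0.0041) from 30 to 60 days, Cry1 (0.13) and Nr1d1 (0.012) from 60 to 90 days, and the departure of Nr1d1 (-0.049); with equal depth, Arntl from 30 to 60 days (0.060). With 1 library left out, the ranges of such values that spanned 0 were -0.28 to 0.14 for Arntl and -0.089 to 0.011 for Bhlhe41 from 30 to 60 days, -0.12 to 0.032 for Cry1 and -0.41 to 0.038 for Per2 from 60 to 90 days, and -0.050 to 0.070 for the departure of Nr1d1. The ratios of Arntl to Nr1d1 (-0.14 to 0.32) and Cry1 to Dbp (-0.41 to 0.050) also spanned 0 from 30 to 60 days. The cause was not tested. Over all genes, 238 calls from 30 to 60 days (173 higher, 65 lower) became 90 with library-size scaling (79 and 11), 358 with DESeq2, 459 without a filter and 73 to 244 with 1 library left out. The 39 calls from 60 to 90 days (14 and 25) became 28 (19 and 9), 140, 354 and 16 to 103 in the same order, and 92 with the replicate block. The 544 calls from 30 to 90 days (275 and 269) became 440 with library-size scaling (406 and 34), 1045 without a filter and 184 to 703. The 39 calls for the departure (31 and 8) became 20 (12 and 8), 148, 230 and 13 to 81, and 73 with the replicate block. Deviations of same-numbered libraries correlated between -0.06 and 0.19, and those of differently numbered libraries between -0.21 and 0.19. These values cannot settle whether equal numbers pair the libraries. Counts were only 14 to 80 per library for Arntl and 5 to 52 for Npas2.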

Other observations

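Several clock genes share annotated bases with a neighbour, whose values are given here because strand use in the counting is unknown. Thra, which overlaps Nr1d1 on the opposite strand, measured 20.4 to 28.5 CPM and had log2 fold changes of 0.02 ± 0.13 from 30 to 60 days and -0.05 ± 0.13 from 60 to 90 days (SE; edgeR adjusted p = 0.977 and 0.929). For Sphk2, which overlaps Dbp, the log2 difference of 90 from 30 days was 0.51 ± 0.12 (SE; edgeR adjusted p = 0.0171). Camta1 spans Per3 on the same strand without shared exon bases and measured 9.68 to 15.5 CPM. D930015M05Rik, opposite Cry2, covers 4.67% of its exon bases and did not exceed 1.06 CPM, and Gm43909, opposite Bhlhe41, covers 19.0% and did not exceed 1.13 CPM. Gm45355, opposite Arntl, had 0 counts in all 9 libraries.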
